A study of Mus musculus with 4 samples.

Results

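The 47 interferon-stimulated genes described here were followed in ventricular RNA of mice aged 1 day after birth. They were taken by name from a list of interferon response genes, and all 47 were found among the 53465 genes of the deposited count files. The list was chosen with earlier results of these data known, so shares of members set beside those of all genes are descriptions. The study compared hearts labelled as knockouts of Ctnnb1 in cardiomyocytes with control hearts, by sequencing polyA RNA. Mice of both groups carried homozygous floxed alleles of Ctnnb1 (genotype Ctnnb1floxP/floxP). The 2 knockout-labelled libraries came from mice with the alphaMHC-Cre transgene, whose promoter drives the Cre recombinase in cardiomyocytes, and the 2 control libraries from mice without it. Other cells of the heart therefore keep the floxed gene by design, and the effects of the transgene and of the deletion cannot be told apart. The labels do not say whether the samples were separate animals, so p-values measure only the spread between these samples.

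Interferons are cytokines that put cells into an antiviral state. Type I interferons (alpha and beta) act through the receptor pair Ifnar1 and Ifnar2 and the kinases Jak1 and Tyk2, which activate a complex with Stat2 and Irf9 that binds the interferon-stimulated response element (ISRE) in promoters. Interferon-gamma, made mainly by T cells and natural killer cells, acts through Ifngr1 and Ifngr2, and the activated factor binds the gamma-activated site (GAS). The products of the induced genes sense or degrade viral RNA, attach the ubiquitin-like protein ISG15, present antigen or attract lymphocytes, and many of them are also expressed at a low tonic level without infection. By these textbook roles, 34 members were treated as type I genes and 13 as interferon-gamma responsive genes.

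Promoter stretches of 10 members are shown because they let the elements of the pathway be seen beside the counts below. They are RefSeq sequences of GRCm38.p6, read 5′ to 3′ on the strand of the gene and lying upstream of its annotated start, with matches to the ISRE core (GAAA, 2 bases of any kind and GAAA again) on either strand in capitals, and for Irf1 a match to the GAS core TTCNNNGAA. The stretch of Ifit2 held neither. Neither of the 2 windows of this gene held an ISRE core, while 1 of them held a GAS core further upstream, starting at position -241 from the start.
Ifit1 (chr19:34640760-34640838, forward strand): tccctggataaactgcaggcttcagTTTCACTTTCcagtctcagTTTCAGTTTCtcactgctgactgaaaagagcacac
Ifit3 (chr19:34583348-34583441, forward strand): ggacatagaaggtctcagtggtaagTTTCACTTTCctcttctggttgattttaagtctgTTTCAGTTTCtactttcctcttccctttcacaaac
Ifit3b (chr19:34607744-34607837, forward strand): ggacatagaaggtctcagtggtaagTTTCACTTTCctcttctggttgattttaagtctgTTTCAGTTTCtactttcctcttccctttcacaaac
Ifit2 (chr19:34550534-34550643, forward strand): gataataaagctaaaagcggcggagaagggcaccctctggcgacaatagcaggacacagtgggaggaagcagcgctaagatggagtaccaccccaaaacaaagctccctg
Isg15 (chr4:156200850-156200921, reverse strand): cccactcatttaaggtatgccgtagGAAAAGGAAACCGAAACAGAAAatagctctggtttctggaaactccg
Rsad2 (chr12:26456538-26456597, reverse strand): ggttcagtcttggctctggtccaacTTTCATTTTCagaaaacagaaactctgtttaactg
Gbp2 (chr3:142620579-142620638, forward strand): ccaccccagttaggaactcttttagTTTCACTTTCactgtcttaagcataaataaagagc
Cxcl10 (chr5:92349068-92349127, reverse strand): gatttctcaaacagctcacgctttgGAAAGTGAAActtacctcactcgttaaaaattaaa
Socs1 (chr16:10785579-10785644, reverse strand): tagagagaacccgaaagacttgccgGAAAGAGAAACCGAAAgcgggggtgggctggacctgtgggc
Irf1 (chr11:53769899-53769957, forward strand): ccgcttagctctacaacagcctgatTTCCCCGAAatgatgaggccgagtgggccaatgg
The stretches of Ifit3 and Ifit3b were identical over all 94 bases, and each of the IFIT genes other than Ifit2 held a pair of ISRE cores. Adjacent matches overlapped in Isg15 and Socs1, where 3 and 2 matches run into each other. RefSeq windows from 250 bases before to 50 after the start were at hand for 35 members, and 19 of these genes (54.3%) held the ISRE core. Of all 27025 genes with a window, 3.99% held it. The GAS core, which is its own reverse complement, was found in 9 of the 35 members (25.7%) and in 9.55% of all genes with a window. ISRE cores were in 12 of 24 type I genes and 7 of 11 interferon-gamma genes, and a match is a description of the letters, not a site shown to be bound. Among members whose windows lacked the ISRE core, DESeq2 called Oasl1, Oasl2, Cmpk2, Ifi44, Irf7, Irf9 and Cd274 lower in the tests below. It did not call the others without the core, Ifit2 among them. Of members with the core, Ifih1, Ddx58, Oas3, Bst2 and Irgm1 were not called and the others were. No window was at hand for Dhx58, Zbp1, Oas2, Mx1, Mx2, Rtp4, Ifi27, Usp18, Parp9, Parp14, Iigp1 and Ccl5.

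The libraries held between 34027143 and 45651797 counts in genes, so a count of 0 allows at most 0.0657 to 0.0882 CPM (counts per 1000000 counts in genes) before scaling. Ctnnb1, which encodes β-catenin, had 526 and 460 CPM for knockout-labelled libraries 1 and 2, against 408 and 434 CPM in controls 1 and 2. Its log2 fold change of 0.23 ± 0.20 (SE) had an adjusted p of 0.532 in edgeR. The count covers the whole gene and the non-myocytes of the ventricle, so it does not check the labels, and the groups are called by their labels throughout. Cardiomyocyte markers were abundant in each library (8 genes, summing to 67104 and 75613 CPM in the knockout-labelled libraries and to 55526 and 50904 CPM in the controls). Reads that aligned to several places made up 23.9% and 29.7% of counted reads in the knockout-labelled libraries, against 19.4% and 21% in the controls. This share and those of reads without a feature or ambiguous separated the groups, and their part in the results was not tested. Libraries that stood apart were control 1, with transcripts of T cells and of thymic epithelium as given below, and knockout-labelled 2. In the latter Xist was at 602 CPM, against at most 0.327 CPM in the other 3. The Y-linked Kdm5d was at 0 CPM there, against at least 37.4 CPM. By these genes knockout-labelled 2 reads as female and the other 3 as male, so the 2 knockout-labelled libraries did not share 1 animal. Sex was thus not balanced between the groups, and its part in the results was not tested.

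Most interferon-stimulated genes were lower in the knockout-labelled hearts. Of the 47 members, 43 were lower in each knockout-labelled library than in either control, 0 were higher in each, and the groups overlapped for 4 (Ifit2, Oas3, Bst2 and Xaf1). Over all 18157 genes tested, 29.7% were lower in both and 26.5% higher in both. By class, 30 of 34 type I genes and 13 of 13 interferon-gamma genes were lower in both. Zbp1, Mx1, Cxcl9 and Cxcl10 passed the filter on low counts only through the controls, so that they had to be lower. Ccl5 did not pass it and is not among the genes tested. The counts of members are thus a description. Summed over the type I genes, the level was 248 and 276 CPM for knockout-labelled libraries 1 and 2, against 398 and 624 CPM in controls 1 and 2. Summed over the interferon-gamma genes, it was 71.4 and 68.6 CPM for knockout-labelled libraries 1 and 2, against 123 and 159 CPM in controls 1 and 2. Both sums thus separated the groups, with control 2 the highest of the 4 libraries. In such bulk samples, fewer cells of a type and less RNA per cell cannot be told apart.

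No member passed edgeR's quasi-likelihood test over all genes at an adjusted p under 0.05, where it called 0 genes lower and 2 higher in all (0.011% of genes tested). The smallest adjusted p among members was 0.0925, shared by 8 of them, and 11 were under 0.1. At an unadjusted p under 0.05 edgeR had 35 members lower and 0 higher, against 11.2% of all genes lower. DESeq2 called 28 of the 45 members with an adjusted p lower and 0 higher, where it called 4.91% of all genes lower and 6.19% higher, and limma-voom called 0 (33 lower at an unadjusted p under 0.05). With no filter on low counts edgeR called 14 members lower (0.753% of all genes), and with knockout-labelled 1 paired with control 2 and the converse it called 12 (2.43% of all genes). DESeq2's 28 calls became 16 when control 1 was left out and 6 when control 2 was. They became 19 when knockout-labelled 1 was left out and 18 when knockout-labelled 2 was. The shares of all genes called lower in these fits were 0.297%, 1.67%, 7.41% and 4.22%. The authors' deposited table gave 29 members a negative fold change with an adjusted p below 0.05, of which DESeq2 called 28 here. The median log2 fold change of the 46 members tested was -1.36, against -0.02 over all genes tested, and 45 of the 46 were below 0, against 51.5% of all genes tested. Ccl5 did not pass the filter on low counts, and Zbp1, Mx1, Cxcl9 and Cxcl10 passed it only through the controls, so that these 4 had to differ and the median is a description. A log2 fold change of -1 or below was found for 31 members and for 7.86% of all genes tested. The ± beside log2 fold changes gives their SE in edgeR over 2 libraries per group, CPM values are scaled by TMM and given for library 1 and then library 2 of each group, and a gene is said to fall only where DESeq2 called it.

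Per kilobase of exon, the highest mean levels over the 4 libraries were those of Bst2 (23.1 CPM per kilobase), Trim25 (12.4), Ifi27 (8.47), Ifi35 (6.87) and Isg15 (6.03). The lowest were those of Cxcl9 (0.12), Oas3 (0.163) and Zbp1 (0.319). The 4 most abundant genes by this measure had log2 fold changes between -0.60 and -0.29, all closer to 0 than the median of the members. Between the knockout-labelled libraries the second was above the first for 32 of the 47 members, and for 9110 of the 18157 genes tested.

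**Figure D1:**
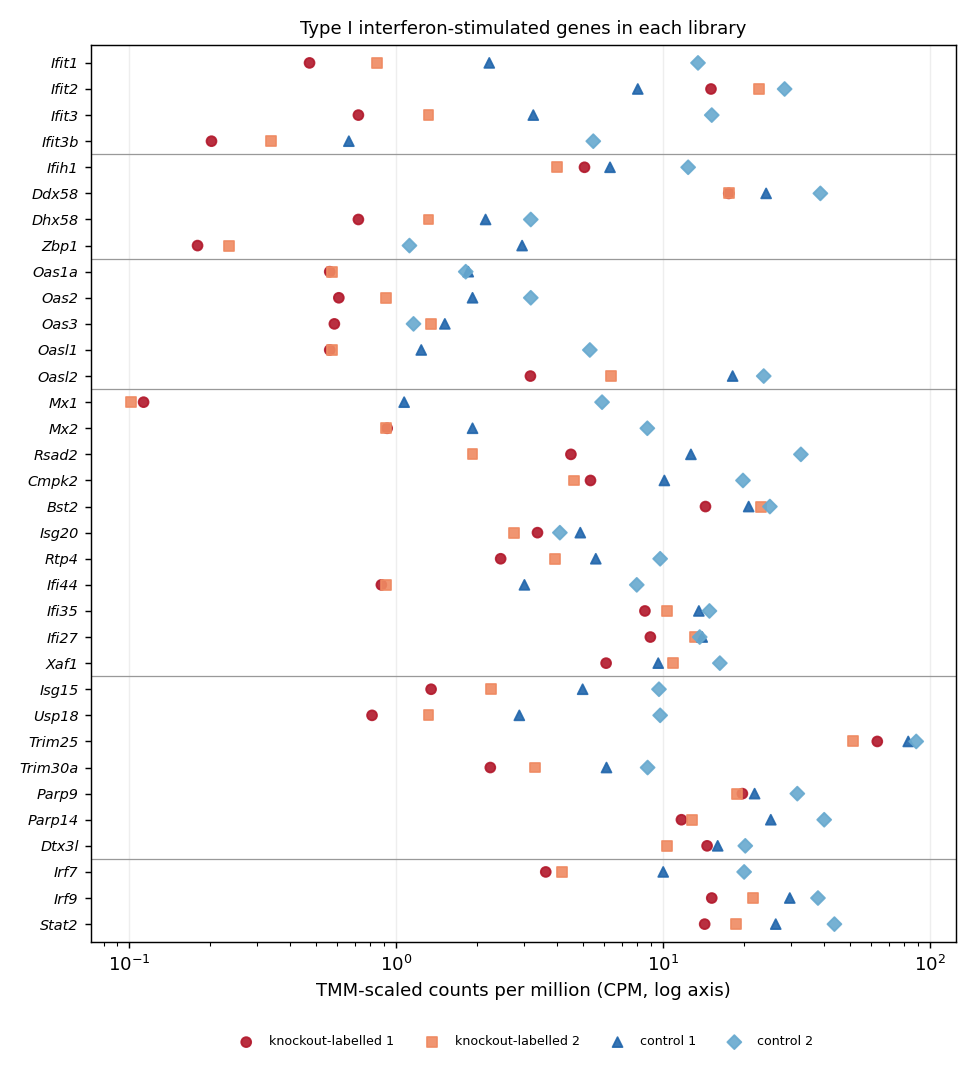
TMM-scaled CPM (log axis) of the 34 type I genes in the 2 knockout-labelled libraries (red circles and orange squares) and the 2 controls (blue triangles and light blue diamonds), with lines between groups of genes by role. Both knockout-labelled libraries lie left of both controls for 30 genes, and control 2 lies right of control 1 for 29.

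The IFIT proteins bind foreign RNA and block its translation. Their genes lie side by side on chromosome 19 of GRCm38, from 34550694 (Ifit2) to 34650009 (Ifit1). Ifit1 was at 0.473 and 0.845 CPM in the libraries labelled knockout, against 2.23 and 13.5 CPM in the controls. Ifit3 was at 0.721 and 1.32 CPM in knockout-labelled hearts and 3.26 and 15.2 CPM in control hearts. Ifit3b, its near-copy, was at 0.203 and 0.338 CPM with the knockout label, against 0.664 and 5.47 CPM in the 2 controls. All 3 fell, with log2 fold changes of -3.59 ± 0.90, -3.19 ± 0.79 and -3.52 ± 1.05 (DESeq2, adjusted p = 0.000213, 0.000265 and 0.00596). Their levels in control 2 were 6.05, 4.68 and 8.24 times those in control 1, so most of the signal of the control group came from 1 library. The longest transcripts of Ifit3 and Ifit3b are 97.8% identical over 1700 bases, which makes the split of reads between them uncertain. Ifit2 differed from its neighbours, at 15.1 and 22.9 CPM for knockout-labelled libraries 1 and 2, against 8.03 and 28.5 CPM for controls 1 and 2. Its mean level per kilobase of exon was the highest of the 4, and its groups overlapped. Its log2 fold change was 0.05 ± 0.57 (adjusted p = 0.966 in edgeR and 0.95 in DESeq2), or -0.59 without control 1 and 1.25 without control 2. DESeq2 called 3 IFIT genes without control 1, 0 without control 2, and 1 with either knockout-labelled library left out.

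The RNA sensors were lower in both knockout-labelled libraries in 4 of 4 cases, where 29.7% of all genes tested were. Zbp1, a sensor of Z-form nucleic acid that can start necroptosis, was at 0.18 and 0.237 CPM in the libraries labelled knockout, against 2.96 and 1.12 CPM in the controls. Zbp1 passed the filter on low counts only through the controls, so that it had to differ. It fell, with a log2 fold change of -3.29 ± 0.63 (DESeq2, adjusted p = 0.00173), and unlike most type I genes it was higher in control 1 than in control 2. Ddx58, which encodes the sensor RIG-I, was at 17.6 and 17.6 CPM in knockout-labelled hearts and 24.3 and 38.8 CPM in control hearts, a log2 fold change of -0.85 ± 0.26 (DESeq2, adjusted p = 0.0578). Ifih1, which encodes MDA5, was at 5.07 and 3.99 CPM with the knockout label, against 6.32 and 12.4 CPM in the 2 controls. Dhx58, which encodes their regulator LGP2, was at 0.721 and 1.32 CPM for knockout-labelled libraries 1 and 2, against 2.16 and 3.19 CPM for controls 1 and 2. Neither passed in DESeq2 (adjusted p = 0.0985 and 0.0982), with log2 fold changes of -1.04 ± 0.39 and -1.40 ± 0.46. Zbp1 kept its DESeq2 call without control 2 (adjusted p = 0.00816) and not without control 1 (adjusted p = 0.739).

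The OAS enzymes bind double-stranded RNA and make oligoadenylates, and the OAS-like proteins act on RNA sensing and on viral replication. Oasl2, the most abundant of the 5 per kilobase of exon, was at 3.18 and 6.39 CPM in the libraries labelled knockout, against 18.2 and 23.8 CPM in the controls, with means of 4.78 ± 2.27 CPM in the knockout-labelled libraries and 21.0 ± 3.97 CPM in the controls (SD, n = 2 each). Oasl1, which in mouse represses the translation of Irf7, was at 0.563 and 0.574 CPM in knockout-labelled hearts and 1.24 and 5.31 CPM in control hearts. Both fell, with log2 fold changes of -2.14 ± 0.38 and -2.52 ± 0.73 (DESeq2, adjusted p = 1.27e-05 and 0.0149). Oas1a was at 0.563 and 0.574 CPM with the knockout label, against 1.86 and 1.82 CPM in the 2 controls, the 2 controls being nearly equal. Oas2 was at 0.609 and 0.912 CPM for knockout-labelled libraries 1 and 2, against 1.93 and 3.19 CPM for controls 1 and 2. They fell as well, with log2 fold changes of -1.69 ± 0.37 and -1.76 ± 0.45 (DESeq2, adjusted p = 0.0445 and 0.0327). The longest transcript of Oas1a is 97.6% identical to one of Oas1g over 1861 bases, so its value is uncertain. Oas3 was at 0.586 and 1.35 CPM in the libraries labelled knockout, against 1.52 and 1.16 CPM in the controls, and its groups overlapped. DESeq2 called 4 of the 5 genes with all libraries, 2 without control 1, and 1 with control 2 or either knockout-labelled library left out. Oasl2 was among the genes called in each of these fits.

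Of 11 other antiviral effectors, 9 were lower in both knockout-labelled libraries, where 29.7% of all genes tested were. Mx1 belongs to the dynamin-like GTPases that trap viral ribonucleoproteins, and RefSeq lists it as a transcribed pseudogene in the reference strain. It was at 0.113 and 0.101 CPM in knockout-labelled hearts and 1.07 and 5.9 CPM in control hearts. This log2 fold change of -4.98 ± 0.99 was the largest of the members tested (DESeq2, adjusted p = 2.48e-05). It rests on 5 and 3 reads in knockout-labelled libraries 1 and 2, against 50 and 289 reads in controls 1 and 2. Mx1 passed the filter on low counts only through the controls, so that it had to differ. Mx2 was at 0.924 and 0.912 CPM with the knockout label, against 1.93 and 8.72 CPM in the 2 controls, a log2 fold change of -2.53 ± 0.73 (DESeq2, adjusted p = 0.00681). The 2 genes share a stretch of 920 bases at 94.8% identity. Rsad2, which encodes viperin, the enzyme that makes a chain-terminating nucleotide, was at 4.51 and 1.93 CPM for knockout-labelled libraries 1 and 2, against 12.7 and 32.8 CPM for controls 1 and 2. Cmpk2, a mitochondrial nucleotide kinase and its neighbour on chromosome 12, was at 5.34 and 4.63 CPM in the libraries labelled knockout, against 10.1 and 19.9 CPM in the controls. The pair fell, with log2 fold changes of -2.81 ± 0.59 and -1.59 ± 0.37 (DESeq2, adjusted p = 1.91e-05 and 0.00248). Ifi44 was at 0.879 and 0.912 CPM in knockout-labelled hearts and 3.02 and 7.96 CPM in control hearts, a log2 fold change of -2.61 ± 0.54 (DESeq2, adjusted p = 0.000378). Rtp4, a receptor transport protein induced by interferon, was at 2.46 and 3.92 CPM with the knockout label, against 5.59 and 9.74 CPM in the 2 controls, a log2 fold change of -1.27 ± 0.41 (DESeq2, adjusted p = 0.0467). Of the exon bases of Rtp4, 13.9% overlap Gm45338 on the same strand, so part of its reads may be uncertain.

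The remaining effectors had log2 fold changes closer to 0. Bst2 encodes tetherin, the protein that holds budding virus at the cell surface. It was at 14.4 and 23.2 CPM for knockout-labelled libraries 1 and 2, against 20.9 and 25.1 CPM for controls 1 and 2. Its groups overlapped, with a log2 fold change of -0.29 ± 0.28 (adjusted p = 0.566 in edgeR and 0.681 in DESeq2). Isg20, an exonuclease, Ifi35 and Ifi27 were lower in both knockout-labelled libraries by log2 fold changes of -0.54 ± 0.32, -0.60 ± 0.23 and -0.33 ± 0.26, and Xaf1 overlapped with -0.61 ± 0.39. Ifi35 shares 16.8% of its exon bases with a gene on the opposite strand. None of these 4 was called by DESeq2 (adjusted p from 0.169 to 0.594). DESeq2 called 6 of the 11 effectors with all libraries and 5 without control 1. It called 0 of them when control 2 was left out and 5 with either knockout-labelled library left out.

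ISG15 is a ubiquitin-like protein joined to other proteins during the response, and USP18 removes it again and dampens signalling at the type I receptor. Isg15, on the reverse strand of chromosome 4 from 156199424 to 156200818, was at 1.35 and 2.26 CPM in the libraries labelled knockout, against 4.99 and 9.64 CPM in the controls. Usp18 was at 0.811 and 1.32 CPM in knockout-labelled hearts and 2.89 and 9.74 CPM in control hearts. Both fell, with log2 fold changes of -2.02 ± 0.46 and -2.58 ± 0.65 (DESeq2, adjusted p = 0.00162 and 0.00192). Parp14, an ADP-ribosyltransferase, was at 11.7 and 12.8 CPM with the knockout label, against 25.3 and 40.1 CPM in the 2 controls, with little spread within the knockout-labelled group, and fell with a log2 fold change of -1.42 ± 0.26 (DESeq2, adjusted p = 0.00037). Its neighbours Parp9 and Dtx3l, an inactive PARP and the ubiquitin ligase that it pairs with, lie head to head on chromosome 16 and had log2 fold changes of -0.48 ± 0.23 and -0.55 ± 0.26, without a call in DESeq2 (adjusted p = 0.331 and 0.288). Parp9 was at 19.8 and 18.9 CPM for knockout-labelled libraries 1 and 2, against 22 and 31.8 CPM for controls 1 and 2. Trim30a was at 2.25 and 3.31 CPM in the libraries labelled knockout, against 6.13 and 8.74 CPM in the controls, and fell with a log2 fold change of -1.42 ± 0.36 (DESeq2, adjusted p = 0.00882). Trim25, the ligase that acts with RIG-I, was at 63.4 and 51.6 CPM in knockout-labelled hearts and 82.8 and 88.7 CPM in control hearts, a log2 fold change of -0.58 ± 0.17 (DESeq2, adjusted p = 0.086). DESeq2 called 4 of these 7 genes with all libraries, 3 without control 1, 0 without control 2, and 4 with either knockout-labelled library left out.

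The transcription factors of the type I response were lower in both knockout-labelled libraries, where 29.7% of all genes tested were. Irf7, the factor that amplifies interferon production, was at 3.63 and 4.19 CPM with the knockout label, against 10 and 20.1 CPM in the 2 controls. Its means were 3.91 ± 0.397 CPM in the knockout-labelled libraries and 15.1 ± 7.16 CPM in the controls (SD, n = 2 each). In edgeR its log2 fold change was -1.95 ± 0.39 (DESeq2, adjusted p = 0.000184). Irf9, the DNA-binding subunit of the ISRE complex, was at 15.2 and 21.7 CPM for knockout-labelled libraries 1 and 2, against 29.8 and 38 CPM for controls 1 and 2. Stat2, its partner, was at 14.3 and 18.8 CPM in the libraries labelled knockout, against 26.4 and 43.8 CPM in the controls. Their log2 fold changes were -0.88 ± 0.24 and -1.09 ± 0.29 (DESeq2, adjusted p = 0.0387 and 0.0193). All 3 fell with all libraries, while 1 was called without control 1 and 0 without control 2. Leaving out knockout-labelled 1 gave 1 call, and leaving out knockout-labelled 2 gave 3.

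**Figure D2:**
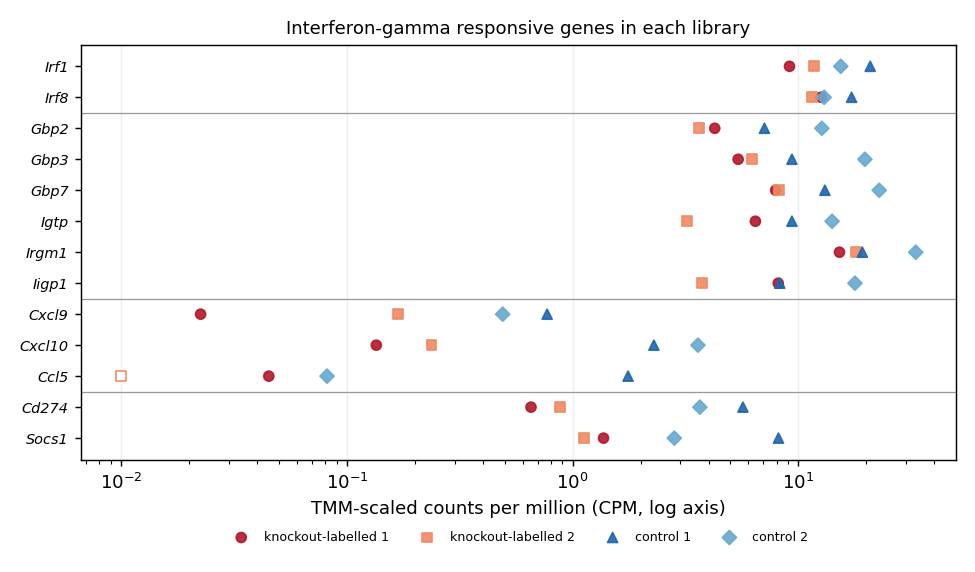
TMM-scaled CPM (log axis) of the 13 interferon-gamma responsive genes in the 2 knockout-labelled libraries and the 2 controls, with lines between groups of genes by role. Both knockout-labelled libraries lie left of both controls for each of the 13, and the open square for Ccl5 marks a count of 0, which has no place on a log axis and is drawn at the left edge.

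The GBP and IRG proteins are GTPases that attack the vacuoles of intracellular pathogens. Gbp7, Gbp3 and Gbp2 lie in 1 cluster on chromosome 3, from 142530342 to 142638008. Gbp2 was at 4.26 and 3.62 CPM in knockout-labelled hearts and 7.07 and 12.7 CPM in control hearts. Gbp3 was at 5.41 and 6.25 CPM with the knockout label, against 9.36 and 19.7 CPM in the 2 controls. Gbp7 was at 7.93 and 8.18 CPM for knockout-labelled libraries 1 and 2, against 13.1 and 22.8 CPM for controls 1 and 2. These 3 genes fell, with log2 fold changes of -1.33 ± 0.36, -1.32 ± 0.39 and -1.16 ± 0.31 (DESeq2, adjusted p = 0.0158, 0.0223 and 0.0171). Igtp, which encodes Irgm3, was at 6.45 and 3.21 CPM in the libraries labelled knockout, against 9.36 and 14.1 CPM in the controls, and fell with a log2 fold change of -1.27 ± 0.41 (DESeq2, adjusted p = 0.0359). Irgm1 was at 15.2 and 18 CPM in knockout-labelled hearts and 19.2 and 33.1 CPM in control hearts. Iigp1 was at 8.14 and 3.75 CPM with the knockout label, against 8.27 and 17.8 CPM in the 2 controls. For both, knockout-labelled and control libraries nearly met, and the log2 fold changes of -0.66 ± 0.29 and -1.13 ± 0.51 were not called by DESeq2 (adjusted p = 0.23 and 0.134). The exons of Gbp7 overlap Gm43802 on the same strand over 11.3% of their bases. In 6 of these 6 genes control 2 was above control 1. DESeq2 called 4 of them with all libraries, 1 without control 1 and 0 without control 2. Leaving out knockout-labelled 1 gave 3 calls, and leaving out knockout-labelled 2 gave 1.

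The chemokines Cxcl9, Cxcl10 and Ccl5 attract T cells and natural killer cells. Cxcl10, on the reverse strand of chromosome 5 from 92346638 to 92348889, was at 0.135 and 0.237 CPM for knockout-labelled libraries 1 and 2, against 2.29 and 3.59 CPM for controls 1 and 2, from 6 and 7 reads in the knockout-labelled libraries and 107 and 176 reads in the controls. Like Cxcl9, it passed the filter on low counts only through the controls, so that it had to differ and its calls are a description. Cxcl10 fell with a log2 fold change of -4.00 ± 0.52 (DESeq2, adjusted p = 1.66e-06) and had the smallest unadjusted p of all members in edgeR (0.000239, adjusted p = 0.0925). Together with Oasl2 it was called by DESeq2 with each of the 4 libraries left out in turn, the 2 members of which this was true. Cxcl9 was at 0.0225 and 0.169 CPM in the libraries labelled knockout, against 0.771 and 0.49 CPM in the controls, from 1 and 5 reads in the knockout-labelled libraries and 36 and 24 reads in the controls, a log2 fold change of -2.84 ± 0.79 in edgeR (adjusted p = 0.128). Ccl5 had 2 and 0 reads in the knockout-labelled libraries, and 82 and 4 reads in controls 1 and 2. Without control 1, the other 3 libraries thus held at most 4 reads of Ccl5.

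Cd274, which encodes the checkpoint ligand PD-L1, was at 0.654 and 0.879 CPM in knockout-labelled hearts and 5.68 and 3.66 CPM in control hearts. Socs1, the feedback inhibitor of JAK kinases, was at 1.37 and 1.12 CPM with the knockout label, against 8.16 and 2.82 CPM in the 2 controls. Both fell, with log2 fold changes of -2.61 ± 0.41 and -2.13 ± 0.57 (DESeq2, adjusted p = 2.34e-05 and 0.00656). Their pattern over the controls was the reverse of that of the GTPases, with control 1 above control 2. The DESeq2 calls of Cd274 and Socs1 were lost without control 1 and kept without control 2. Their log2 fold changes in edgeR were -2.26 and -1.17 without control 1, and -2.88 and -2.70 without control 2. Part of the exon bases of Cd274 (14.1%) is also covered by a gene on the opposite strand, and the strand setting of the counting is not given in the sources used here. Irf1, a transcription factor that drives many interferon-gamma genes, was at 9.13 and 11.7 CPM for knockout-labelled libraries 1 and 2, against 20.8 and 15.4 CPM for controls 1 and 2, a log2 fold change of -0.80 ± 0.26 (DESeq2, adjusted p = 0.0754). Irf8, a factor of the myeloid lineage, was at 12.6 and 11.5 CPM in the libraries labelled knockout, against 17.2 and 13 CPM in the controls, a log2 fold change of -0.33 ± 0.24 (DESeq2, adjusted p = 0.564).

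**Figure D3:**
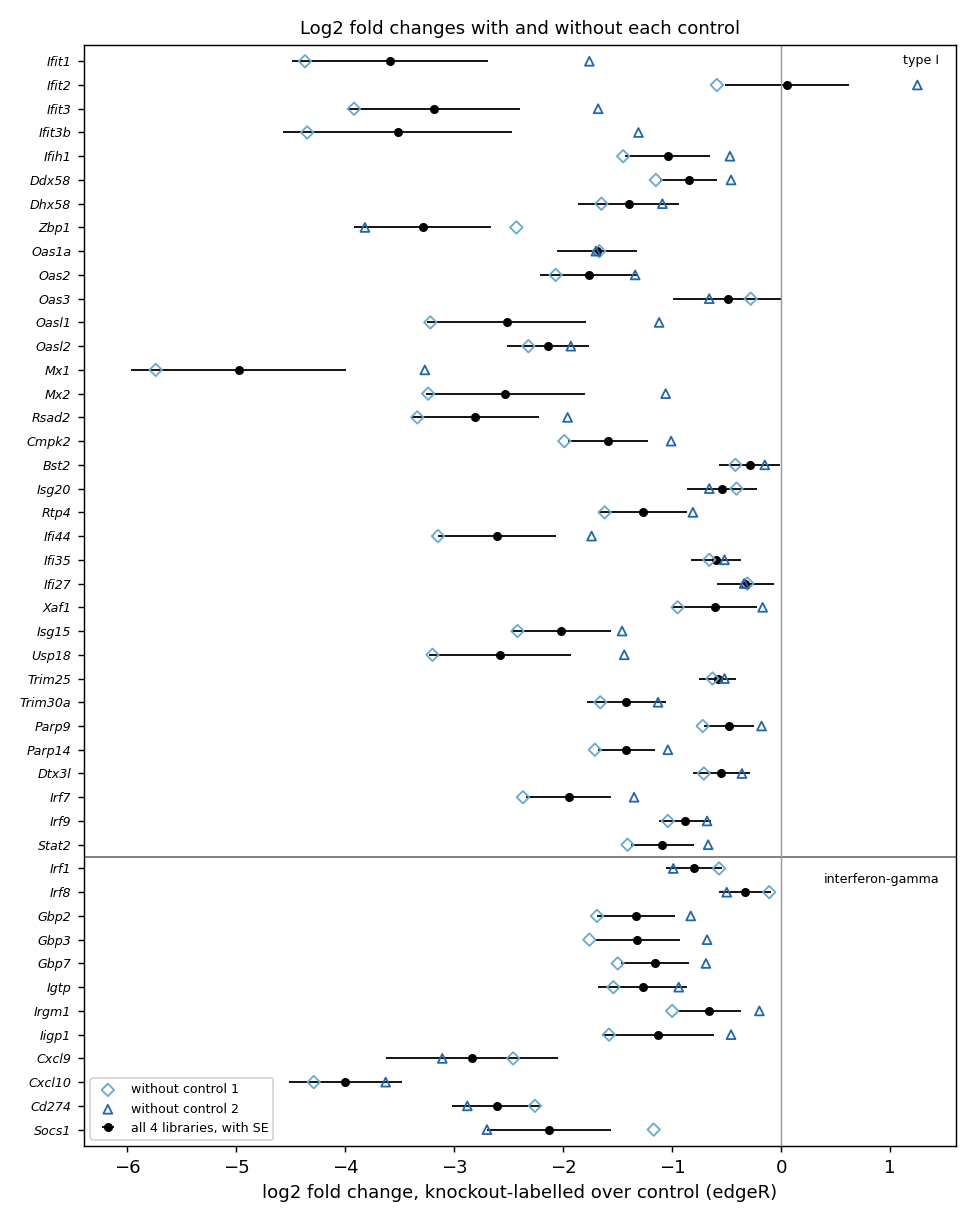
Log2 fold changes of knockout-labelled over control libraries in edgeR for the 46 members tested (black points, with bars of 1 SE), and the same values without control 1 (light blue diamonds) and without control 2 (blue triangles). Most type I genes lie further left without control 1 than without control 2, while genes such as Zbp1, Cxcl9, Cd274 and Socs1 lie further left without control 2, and Ifit2 crosses 0.

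Set against each control apart, the knockout-labelled libraries were lower than either. Both knockout-labelled libraries were below control 1 for 44 of the 47 members and below control 2 for 46, where 38.4% and 37.7% of all genes tested were. The 4 members that passed the filter on low counts only through the controls are in both counts, and they had to be lower. The median ratio of the knockout-labelled mean to control 1 was 0.480 for type I genes and 0.516 for interferon-gamma genes. To control 2 it was 0.316 for type I genes and 0.333 for interferon-gamma genes. The median over all genes tested was 0.994 to control 1 and 0.986 to control 2. The controls also differed from each other. Control 2 was above control 1 for 29 of 34 type I genes and 7 of 13 interferon-gamma genes, where 49.6% of all genes tested were. It was at least 2-fold above for 13 members, against 2.57% of all genes, and control 1 was at least 2-fold above for 3 members (Zbp1, Ccl5 and Socs1), against 4.16% of all genes. As 1 library stands on each side, these ratios have no replicate check. The median log2 fold change of type I genes was -1.66 without control 1 and -1.05 without control 2. For interferon-gamma genes it was -1.56 without control 1 and -0.94 without control 2. At an unadjusted p under 0.05 in edgeR, 18 members were lower and 1 higher (Ifit2) without control 2, where 7.16% of all genes in that fit were lower and 5.12% higher.

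**Figure D4:**
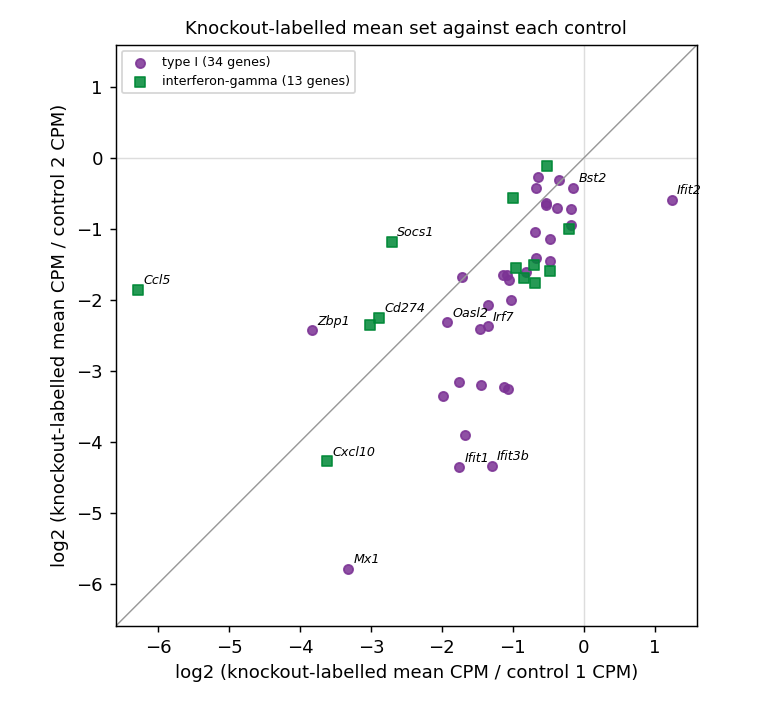
For each of the 47 members, log2 of the ratio of the knockout-labelled mean CPM to control 1 (horizontal axis) and to control 2 (vertical axis), type I genes as circles and interferon-gamma genes as squares, with the line of equality. Genes below the line had a higher level in control 2, as Ifit1 and Mx1, and those above it in control 1, as Ccl5, Zbp1 and Socs1, and 46 of 47 genes lie below 0 on both axes.

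Markers of T cells and thymic epithelium were high in control 1, and the sum of the natural killer cell markers was highest there. The 15 T cell and thymocyte markers summed to 3.16 and 2.97 CPM for knockout-labelled libraries 1 and 2, against 401 and 8.11 CPM in controls 1 and 2. The 5 markers of thymic epithelium summed to 4.78 and 4.73 CPM in the knockout-labelled libraries, against 61.5 and 5.62 CPM in controls 1 and 2. Of the 15 T cell markers, 1 and 4 were at a count of 0 in knockout-labelled libraries 1 and 2, and 0 in either control. The 7 natural killer cell markers summed to 0.225 and 0.338 CPM in the knockout-labelled libraries, against 7.93 and 0.449 CPM in controls 1 and 2. Most of the sum in control 1 came from Gzma (4.46 CPM) and Nkg7 (2.23 CPM). Ncr1, Klrb1c, Klrd1, Gzmb and Prf1 had 10, 8, 8, 16 and 16 reads in that library. Of the 7 B cell markers, 6 were lower in both knockout-labelled libraries, where 29.7% of all genes tested were. Vpreb1 and Igll1 are among the 6 but did not pass the filter on low counts. Vpreb1 had 1 and 1 reads in the knockout-labelled libraries and 9 and 3 reads in the controls. Igll1 had 0 and 0 reads against 1 and 2. DESeq2 called 0 of the 7. The sums of the B cell markers also separated the groups, at a low level. They were 1.49 and 1.99 CPM in the knockout-labelled libraries, against 4.01 and 3.17 CPM in controls 1 and 2. These levels stand beside the members that were higher in control 1 than in control 2, Ccl5, Zbp1, Socs1 and Cd274 among them, and their part in the results was not tested. Without control 1 the median log2 fold change of the members was -1.65, and 32 members were lower and 0 higher at an unadjusted p under 0.05 in edgeR, where 3.59% of all genes in that fit were lower and 4.1% higher. The 12 macrophage and monocyte markers summed to 135 and 182 CPM in the knockout-labelled libraries, against 218 and 173 CPM in the controls. These sums overlapped, while 7 of the 12 genes were lower in both knockout-labelled libraries and 1 was higher in both. Over all genes tested, 29.7% were lower in both and 26.5% higher in both. Among the macrophage markers Cd68 and Csf1r fell (DESeq2, adjusted p = 0.000247 and 0.0295) and Mrc1 rose (DESeq2, adjusted p = 0.012). These DESeq2 calls were lost without control 1, and those of Csf1r and Mrc1 were lost without control 2 as well. The log2 fold changes of Cd68, Csf1r and Mrc1 in edgeR were -1.43, -0.71 and 0.96 with all libraries. They were -1.23, -0.62 and 0.98 without control 1, and -1.61, -0.79 and 0.94 without control 2. Cd68 was at 4.73 and 4.97 CPM in knockout-labelled hearts and 14.9 and 11.3 CPM in control hearts, and the part of macrophages in the results was not tested.

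**Figure D5:**
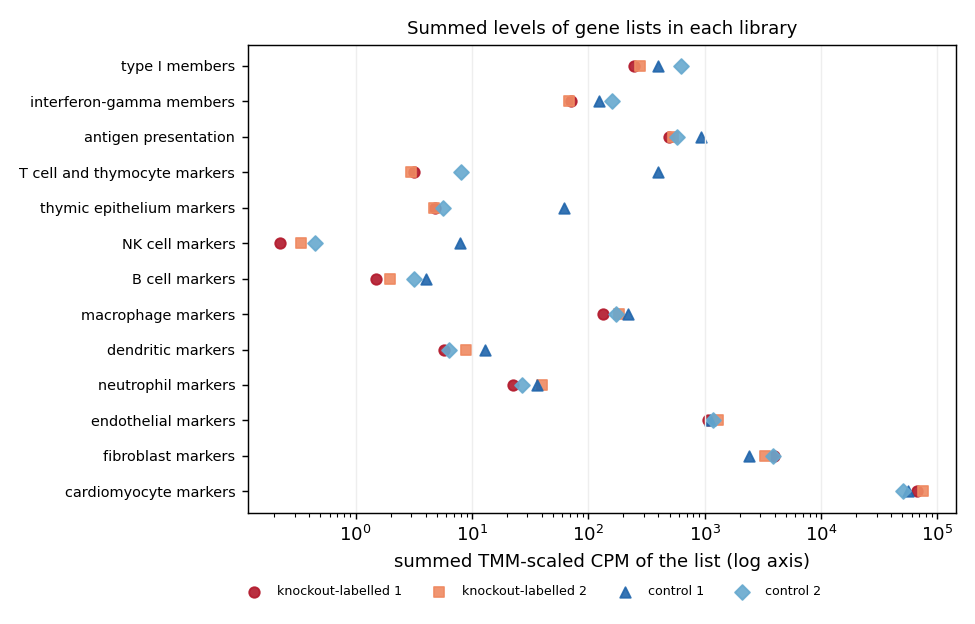
Summed TMM-scaled CPM (log axis) of the members by class, of antigen presentation genes and of cell type markers in the 2 knockout-labelled libraries and the 2 controls. Control 1 stands apart for T cell, thymic epithelium and natural killer cell markers, while control 2 is highest for both classes of members.

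The interferons themselves were not detectable at this depth. Of 21 ligand genes, 16 had 0 counts in each of the 4 libraries, and the highest count of any was 3 reads, for Ifng in control 1. The receptors and JAK-STAT genes had log2 fold changes closer to 0 than most members. The median log2 fold change of the 16 genes was -0.24, and DESeq2 called 1 lower and 0 higher. Over all genes it called 4.91% lower and 6.19% higher, so the 1 call is near the share of all genes. The gene called was Tyk2, the kinase bound to Ifnar1, at 26.3 and 25 CPM with the knockout label, against 46.5 and 42.8 CPM in the 2 controls (log2 fold change -0.80 ± 0.16; DESeq2, adjusted p = 0.0065). Ptpn2, a phosphatase that opposes JAK signalling, was at 35.5 and 37.9 CPM for knockout-labelled libraries 1 and 2, against 26.7 and 26.6 CPM for controls 1 and 2 (log2 fold change 0.46 ± 0.16; DESeq2, adjusted p = 0.13). The receptor genes Ifnar1 and Ifnar2 had log2 fold changes of -0.24 ± 0.15 and -0.21 ± 0.22, and Ifngr1 and Ifngr2 of 0.11 ± 0.32 and 0.34 ± 0.16, with none called. The Tyk2 call was lost with either control left out (DESeq2, adjusted p = 0.806 without control 1 and 0.452 without control 2), when the log2 fold changes in edgeR were -0.74 and -0.85.

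Of 21 genes of nucleic acid sensing and its adaptors found in the files, DESeq2 called 3 lower and 1 higher, and their median log2 fold change was -0.14. Over all genes DESeq2 called 4.91% lower and 6.19% higher, so the 1 call higher is near the share of all genes. Adar, the RNA editing enzyme that keeps cellular double-stranded RNA from the sensors, was at 18.1 and 16.6 CPM in the libraries labelled knockout, against 28.4 and 34 CPM in the controls (log2 fold change -0.85 ± 0.19; DESeq2, adjusted p = 0.011). Ikbke, a kinase that activates Irf3 and Irf7, was at 4.82 and 7.1 CPM in knockout-labelled hearts and 17.4 and 10.4 CPM in control hearts (log2 fold change -1.23 ± 0.36; DESeq2, adjusted p = 0.0228). Rnaseh2b, a subunit of the RNase H2 complex, was the gene that rose, at 25.2 and 27.8 CPM with the knockout label, against 15 and 17.9 CPM in the 2 controls (log2 fold change 0.69 ± 0.19; DESeq2, adjusted p = 0.0408). The DESeq2 calls of Adar, Ikbke and Rnaseh2b were each lost without control 1 and without control 2. The log2 fold changes in edgeR without control 1 and without control 2 were then -0.97 and -0.70 for Adar, -0.80 and -1.54 for Ikbke, and 0.56 and 0.83 for Rnaseh2b.

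Antigen presentation genes, which interferon-gamma induces, were split by class. Over all genes DESeq2 called 4.91% lower with all libraries, and its shares with a library left out are given above. Of 15 genes of class I presentation, DESeq2 called 8 lower and 0 higher (1 without control 1 and 7 without control 2). Nlrc5, the transactivator of class I genes, was at 0.0676 and 0.203 CPM for knockout-labelled libraries 1 and 2, against 3.06 and 2.61 CPM for controls 1 and 2, from 3 and 6 reads in the knockout-labelled libraries and 143 and 128 reads in the controls. It passed the filter on low counts only through the controls, so that it had to differ. It fell with a log2 fold change of -4.45 ± 0.58 (DESeq2, adjusted p = 6.92e-07), and it was the class I gene still called without control 1 (DESeq2, adjusted p = 0.0183). Tap1, a subunit of the peptide transporter, was at 3.38 and 3.65 CPM in the libraries labelled knockout, against 15.3 and 11.3 CPM in the controls, and H2-T23, a non-classical class I gene, was at 8.86 and 8.08 CPM in knockout-labelled hearts and 34 and 21.9 CPM in control hearts. They fell, with log2 fold changes of -1.92 ± 0.28 and -1.72 ± 0.27 (DESeq2, adjusted p = 1.01e-06 and 7.57e-06). The immunoproteasome genes Psmb8 and Psmb9 fell with log2 fold changes of -2.70 ± 0.55 and -2.36 ± 0.61, and Tap2 with -1.49 ± 0.30. The classical class I genes H2-K1 and H2-D1 fell with -1.37 ± 0.32 and -0.72 ± 0.21 (DESeq2, adjusted p = 0.00229 and 0.0499). Psmb8 was at 1.4 and 1.15 CPM with the knockout label, against 12.2 and 4.37 CPM in the 2 controls. Control 2 was above control 1 for 0 of the 22 antigen presentation genes of both classes, where 49.6% of all genes tested were. B2m, the light chain of class I, was at 76.5 and 105 CPM for knockout-labelled libraries 1 and 2, against 107 and 85.5 CPM for controls 1 and 2, with overlapping groups. The 7 class II genes summed to 5.59 and 6.12 CPM in the knockout-labelled libraries, against 182 and 7.07 CPM in controls 1 and 2, so that the high level lay in the library with the T cell and thymic transcripts. Ciita, the class II transactivator, was the one called, at 0.473 and 0.372 CPM in the libraries labelled knockout, against 3.6 and 1.63 CPM in the controls (log2 fold change -2.61 ± 0.53; DESeq2, adjusted p = 0.00285, or 0.749 without control 1). Without control 2, DESeq2 called 6 of the 7.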

How the data were processed

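The deposited values used are raw read counts per gene, made by the authors with STAR 2.5.3a and HTSeq 0.6.1 on GRCm38, per the submitters' processing notes; neither the annotation release nor the strand setting is given there. Libraries were polyA-enriched and made with a stranded kit, per the labels' protocols. The authors' deposited table also holds log2 fold changes and adjusted p-values, and DESeq2 1.18 is named in the submitters' processing notes. Its 4 count columns equal the per-sample files, and 4 further columns of per-sample values were not used.

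Gene names came from GENCODE vM21 (53360 of 53465 genes matched). Reads not assigned to a gene were left out of library sizes: of counted reads, those without a feature were 4.38% and 3.18% in the knockout-labelled libraries and 6.06% and 6.45% in the controls, ambiguous ones 4.28% and 3.9% against 4.85% and 4.43%, and multiply aligned ones 23.9% and 29.7% against 19.4% and 21%. The members, their classes and all other lists were chosen with earlier results of these data known. Full values were given by rule for members called by edgeR or DESeq2, for the 6 most abundant of each class and for the smallest p of each role, and some others were chosen after their values were seen. From each pathway list the genes called by DESeq2 and those with the 3 smallest p were named, the lists' further genes being examples. The values of 2 pathway genes that this rule names are not reported here.

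The main test was edgeR 4.0.16's quasi-likelihood test (R 4.3.3, filterByExpr, TMM scaling, Benjamini-Hochberg adjustment over 18157 genes, threshold 0.05). Alternatives were DESeq2 1.42.0, limma-voom (limma 3.58.1), other scalings, no filter, GC and length offsets, a replicate block and leaving out each library. The last leaves an arm with 1 sample, which is then assumed to vary like the other group. The filter asked for about 0.227 CPM in 2 libraries. A count of 0 was read as at most 3 counts, which covers counting error only. Counts of the 2 controls differed beyond sampling noise (chi-square per degree of freedom 50.2), as did those of the 2 knockout-labelled libraries (119). Scripts were tested on simulated data. Promoters are RefSeq windows, 250 bases before to 50 after each start.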

Additional observations from a re-analysis of the deposited data

How the results depend on the processing

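The median log2 fold change of the members stayed negative in each setting run, in edgeR from -1.01 without control 2 to -1.65 without control 1. Library totals alone moved the median of all genes to -0.26 and that of the members to -1.61, a difference of -1.35 against -1.34 with TMM. Of the 46 members tested, 42 were lower in both knockout-labelled libraries with TMM, where 29.7% of all genes tested were. The count was 42 with DESeq2 size factors and 45 with library totals. The share of all genes is not given for these other scalings, so the rise to 45 is not read as a result about the members. The count of members called was 0 in edgeR, with or without the replicate block, but 14 with no filter on low counts, 28 in DESeq2 and, in DESeq2 with 1 library left out, from 6 (without control 2) through 16 (without control 1) and 18 to 19. Among other pathway genes the count was 0 in edgeR, 8 with no filter, 14 in DESeq2, 0 to 3 in edgeR with 1 library left out and 1 to 13 in DESeq2 with 1 library left out. Over all genes it was 2 in edgeR, 554 with no filter, 1758 in DESeq2, 0 in limma-voom, 18 with the replicate block and 0 with the block and GC and length offsets. With 1 library left out it was 0 to 30 in edgeR and in DESeq2 155 and 521 without controls 1 and 2 and 2492 and 1158 without knockout-labelled 1 and 2. Same-numbered libraries deviated from their group means with a correlation of -0.116 over 18157 genes. With 2 libraries per group this cannot show whether the numbers pair the libraries. A crossed replicate block, added after seeing the data like the DESeq2 fits with 1 library left out, called 942 genes, 12 members and 11 other pathway genes. Direction was reversed for Ifit2 (-0.21 with library totals, and with 1 library left out from -0.59 without control 1 to 1.25 without control 2, with -0.27 without knockout-labelled 2), for Bst2 (0.07 without knockout-labelled 1, -0.67 without knockout-labelled 2), for Oas3 (0.06 and -1.18) and for Ctnnb1 with library totals (-0.01). The causes were not tested. With 2 libraries per group, and at most 5 reads of Cxcl9, Ccl5 and Mx1 in either knockout-labelled library, the fold changes of these genes are uncertain.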
